A study of Mus musculus with 6 samples.

Results

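MiR-204 and miR-211 are a family of microRNAs (miRNAs, short RNAs that repress the mRNAs they pair with). Its members here are the probes named mmu-miR-204-5p, mmu-miR-204-3p and mmu-miR-211-5p, 3 of the 1118 mouse miRNA probes on the array, each with 4 spots and chosen by name. The fourth mature strand, miR-211-3p, is not a member and is given for comparison of the arms. Small RNA came from exosomes, vesicles that cells release, collected by differential centrifugation from the supernatant of purchased mouse endothelial cells, which line blood vessels. The cells were kept for 48 h at 0.9 mM inorganic phosphate (normal, 3 arrays) or 3.5 mM (high, 3 arrays), and both groups grew in the same medium with 12% fetal bovine serum, endothelial growth supplement and heparin. The sources used here do not give the strain, the vascular bed, any removal of serum vesicles or the number of cultures behind each group, so p-values measure the spread between these arrays, which may be technical. The study's question concerns calcified arteries in kidney failure, where blood phosphate is high.

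The 5p strands of miR-204 and miR-211 are known to repress Runx2, the transcription factor that drives cells to an osteoblast fate. In mouse vascular smooth muscle, miR-204 is known as a brake on calcification through Runx2. Pigmented epithelium of the eye and pigment cells are the classical sites of both. Each hairpin gives a 5p and a 3p strand, and for both genes the 5p strand is the one usually kept as the guide.

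The mature strands are shown because the 5p strands share their seed, bases 2 to 8 in capitals, which sets the targets, while the 3p strands do not. Sequences are from RefSeq (GRCm38.p6), 5′ to 3′, and all 4 strands matched by name.
mmu-miR-204-5p: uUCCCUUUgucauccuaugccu
mmu-miR-211-5p: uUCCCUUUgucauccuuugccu
mmu-miR-204-3p: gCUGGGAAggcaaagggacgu
mmu-miR-211-3p: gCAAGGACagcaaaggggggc
The 5p strands are identical at 21 of 22 positions and differ by A17U (miR-204-5p first, counted from 1 at the 5′ end). The 3p strands are identical at 14 of 21 positions. Of 1679 mature mouse miRNAs in the RefSeq table, 3 carry the seed of the 5p strands, the third being miR-7670-3p, which no probe on the array names. The capture sequences of the probes were not used here, and how much of each 5p miRNA the other's probe captures was not tested.

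The hairpins are shown with both mature strands in capitals. The miR-204 hairpin lies at chr19:22750605-22750672 (GRCm38.p6, plus strand), inside the span of the channel gene Trpm3, and the miR-211 hairpin at chr7:64205806-64205911 (plus strand), inside the span of the related gene Trpm1.
Mir204: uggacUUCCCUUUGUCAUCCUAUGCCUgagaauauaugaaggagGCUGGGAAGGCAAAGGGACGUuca
Mir211: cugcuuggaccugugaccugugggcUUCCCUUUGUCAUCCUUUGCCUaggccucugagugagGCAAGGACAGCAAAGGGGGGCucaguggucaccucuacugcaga

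The arrays carried 2 backgrounds. Spots without a probe (Empty) had a 95th percentile of 2 to 3 units of foreground minus local background. The 57 probes for miRNAs of mouse viruses, which the mouse genome does not encode, had a 95th percentile of 1627 to 3233 units, and 129 of 1118 mouse probes (11.5%) exceeded it on at least 3 of the 6 arrays and were tested. The endothelial miR-126a-3p and miR-126a-5p were above it on 6 of 6 arrays. Control spots were dimmer in high phosphate before scaling, by a log2 difference of -0.60 for the spike controls and -0.67 for the Hy3 dye spots (2-sided exact permutation p = 0.1 for each, the smallest that 3 against 3 arrays can give).

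Both 5p strands were well above the Empty spots and mostly above the viral probes, and so were tested. The 3p strand of miR-204 lay between those backgrounds, and so did that of miR-211, far lower, at 4.75 to 31.9 times the Empty threshold. The 3 members exceeded the viral threshold in 11 of 18 pairs of member and array, and the Empty threshold in 18 of 18.

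MiR-204-5p gave 3312, 3727 and 3945 units on normal phosphate replicates 1, 2 and 3, and 2619, 4682 and 2691 units on high phosphate replicates 1, 2 and 3. The high phosphate arrays lay on both sides of the normal ones, with replicate 2 the highest of all 6 and replicates 1 and 3 the lowest. It exceeded the viral threshold on 5 of 6 arrays, and on high phosphate replicate 1 it was 0.982 times that threshold. Of the 57 viral probes, 1 to 3 per array were brighter. The 4 spots of an array varied by 1.13% to 17.3% (coefficient of variation).

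For miR-204-5p normal phosphate gave a mean of 3661 ± 322 units (SD, n = 3) and high phosphate one of 3330 ± 1171 units (SD, n = 3). After quantile normalization the log2 level was 11.82 ± 0.10 (SD, n = 3) and 11.73 ± 0.47 (SD, n = 3). The log2 difference, high minus normal, was -0.08 (SE 0.27), a ratio of 0.944 with 0.611 and 1.46 as its 95% bounds (limma, Benjamini-Hochberg adjusted p = 0.984). The interval holds reductions and increases of such size, so the test does not show that the level was the same. The log2 difference was -0.35 without high phosphate replicate 2 and 0.088 with high phosphate replicate 1 left out instead. Without high phosphate replicate 2 the groups did not overlap, with high phosphate lower (2-sided exact permutation p = 0.1).

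MiR-211-5p gave 5722, 3750 and 6857 units on normal phosphate replicates 1, 2 and 3, and 3937, 3595 and 3075 units on high phosphate replicates 1, 2 and 3. Normal phosphate replicates 1 and 3 were above every high phosphate array, and replicate 2 lay among them. That array had the widest spots of this probe, from 1449 to 4870 units, a coefficient of variation of 42.9% against 4.43% to 32.9% on the other arrays. The probe exceeded the viral threshold on 6 of 6 arrays, by 1.48 to 2.82 times.

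For miR-211-5p normal phosphate gave a mean of 5443 ± 1573 units (SD, n = 3) and high phosphate one of 3536 ± 434 units (SD, n = 3), with overlap between the groups (2-sided exact permutation p = 0.2). The normalized log2 level was 12.28 ± 0.44 (SD, n = 3) and 11.88 ± 0.07 (SD, n = 3), a difference of -0.40 (SE 0.26) or a ratio of 0.757, with 0.499 and 1.15 as its 95% bounds (limma, Benjamini-Hochberg adjusted p = 0.853). The test called 0 of 129 probes (0%), with 9 (6.98%) at an unadjusted p under 0.05. The unadjusted limma p of miR-211-5p was 0.162, and 14 of 129 tested probes (10.9%) had a log2 difference at or below that of miR-211-5p. Without normal phosphate replicate 2 the log2 difference was -0.67 (limma adjusted p = 0.458), and without normal phosphate replicate 3 it was -0.20 (limma adjusted p = 0.960). In the deposited normalized intensities it was -0.68 (limma adjusted p = 0.450). There the median log2 difference of all tested probes was -0.21, against -0.02 after quantile normalization. The groups did not overlap in the deposited intensities or without normal phosphate replicate 2 (2-sided exact permutation p = 0.1 for each).

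**Figure D1:**
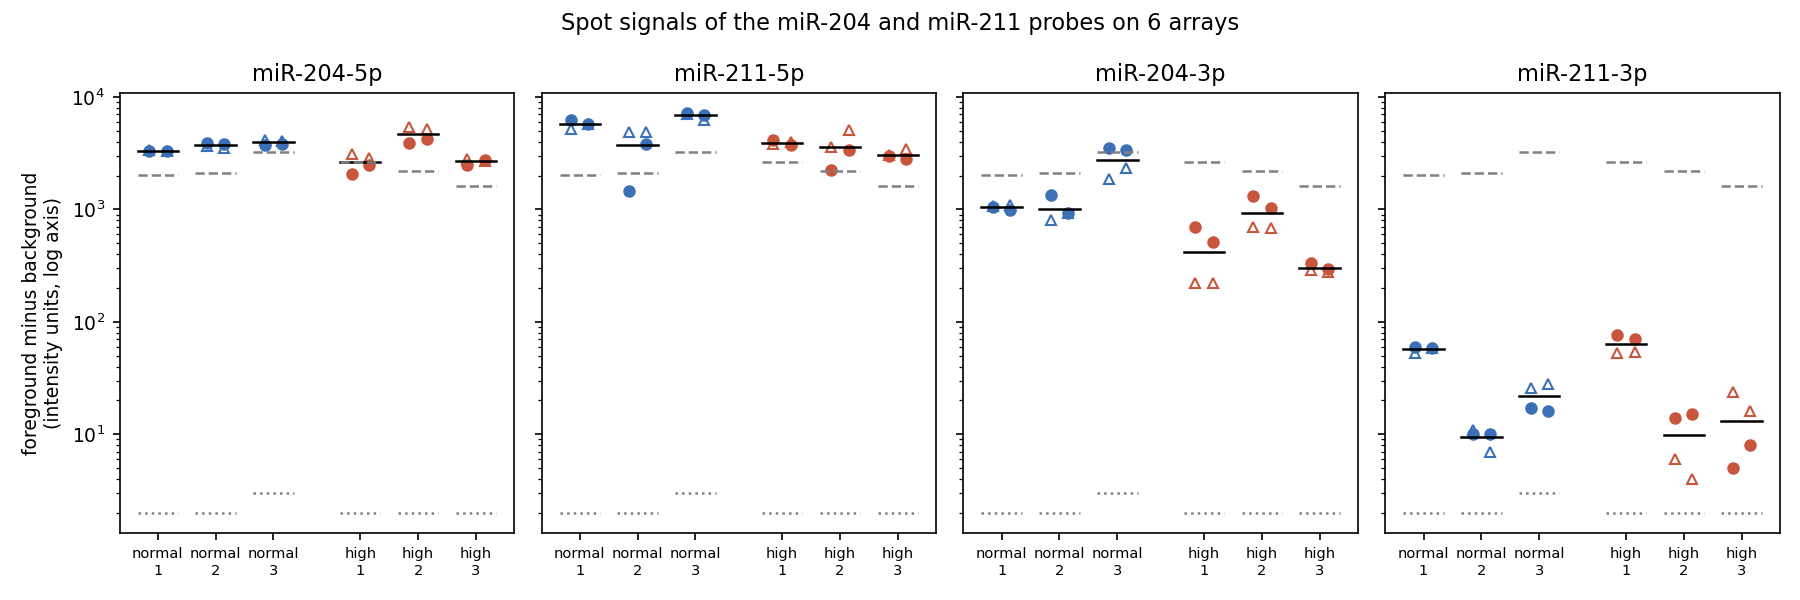
Foreground minus background in intensity units (log axis) of each spot of the 4 probes on each array, normal phosphate in blue and high phosphate in red. Filled circles are spots in blocks 1 to 18 of the array and open triangles those in blocks 19 to 36; solid bars are array means, dashed bars the 95th percentile of viral probes and dotted bars that of Empty spots. MiR-204-3p lies below the dashed bars by its mean on all 6 arrays, and miR-211-5p above them.

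MiR-204-3p, the opposite strand of the miR-204 hairpin, gave 1052, 1002 and 2777 units on normal phosphate replicates 1, 2 and 3, and 415, 939 and 299 units on high phosphate replicates 1, 2 and 3. All 3 high phosphate arrays were below all 3 normal ones, as for 37 of 1118 mouse probes (3.31%), though high phosphate replicate 2 stood only just under normal phosphate replicate 2. It was below the viral threshold on 6 of 6 arrays, at 0.156 to 0.859 times that threshold, and 149 to 926 times the Empty threshold. It was therefore not in the limma test above.

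For miR-204-3p normal phosphate gave a mean of 1610 ± 1011 units (SD, n = 3) and high phosphate one of 551 ± 341 units (SD, n = 3). The normalized log2 level was 10.53 ± 0.73 (SD, n = 3) and 9.10 ± 0.72 (SD, n = 3), a difference of -1.42 (2-sided exact permutation p = 0.1, the smallest possible). The groups of 97 of 1118 mouse probes (8.68%) did not overlap after normalization in one direction or the other. In limma without the filter, over all 1118 mouse probes, the log2 difference of miR-204-3p had an SE of 0.53, a 95% interval from -2.77 to -0.08, an unadjusted p of 0.0416 and an adjusted p of 0.776. That fit called 0 of 1118 probes (0%) after adjustment, and 63 (5.64%) had an unadjusted p under 0.05. Of the 1118, 1 (0.0894%), miR-204-3p itself, had a log2 difference at or below -1.42.

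The spots of miR-204-3p differed with their place on some arrays. On normal phosphate replicate 3 they averaged 3460 units in blocks 1 to 18 and 2094 units in blocks 19 to 36. On high phosphate replicate 1 these block sets averaged 609.5 and 220.5 units, and on high phosphate replicate 2 1184 and 693 units. The sets averaged 1138.5 and 865.5 units on normal phosphate replicate 2, 314.5 and 282.5 units on high phosphate replicate 3 and, in the opposite order, 1020.5 and 1082.5 units on normal phosphate replicate 1. From blocks 1 to 18 alone, where high phosphate replicate 2 exceeded normal phosphate replicates 1 and 2, the log2 difference was -1.21 (2-sided exact permutation p = 0.3), and from blocks 19 to 36 alone it was -1.66 (2-sided exact permutation p = 0.1), both chosen after seeing the data. Leaving out normal phosphate replicate 3 gave a log2 difference of -0.99, and leaving out high phosphate replicate 2 gave -1.83.

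MiR-211-3p, the opposite strand of the miR-211 hairpin, gave 57.5, 9.5 and 21.8 units on normal and 63.8, 9.75 and 13.3 units on high phosphate replicates 1, 2 and 3. Replicate 1 was the brightest array in both groups, and the groups overlapped (2-sided exact permutation p = 1 for the mean units). It was below the viral threshold on 6 of 6 arrays, where 28 to 35 of the 57 viral probes were brighter.

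**Figure D2:**
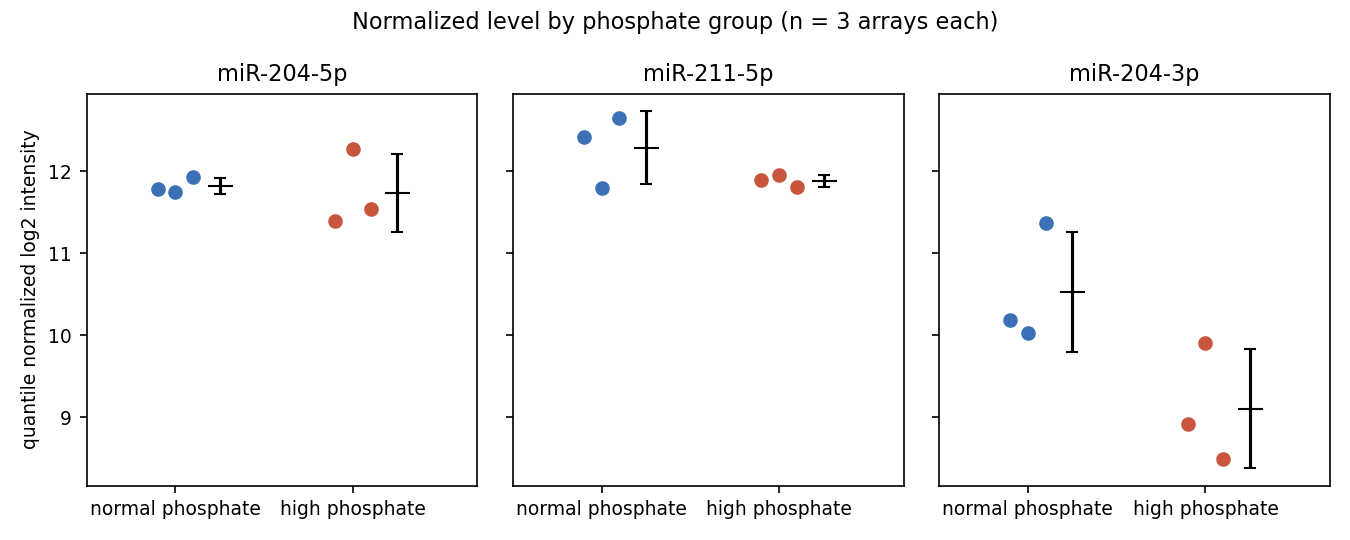
Quantile normalized log2 intensity of the 3 members on each array (points) by phosphate group, with the mean and SD of the 3 arrays (bars to the right). The groups overlap for miR-204-5p and miR-211-5p and do not overlap for miR-204-3p, whose means are 10.53 and 9.10. With median, spike control or Hy3 scaling, not plotted, the groups of miR-204-3p overlap.

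The members were next compared with each other within each array, which needs no scaling between arrays. Probes differ in how they bind, so a ratio of 2 probes has no meaning as a level and only its difference between groups was tested. The log2 ratio of miR-204-5p to miR-204-3p was 1.60, 1.79 and 0.50 on normal phosphate replicates 1, 2 and 3, and 2.50, 2.25 and 2.95 on the high phosphate ones. MiR-204-3p was below the viral threshold on all 6 arrays, so this ratio rests on a probe that did not exceed that background, and it restates in part the separate differences of -0.08 and -1.42. Every high phosphate array had a larger ratio than every normal one, and the means differed by 1.27 (2-sided exact permutation p = 0.1, the smallest possible; 0.2 after Benjamini-Hochberg adjustment over the 2 ratios). The difference was 0.88 without normal phosphate replicate 3.

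The log2 ratio of miR-204-5p to miR-211-5p was -0.78, -0.01 and -0.79 on normal phosphate replicates 1, 2 and 3, and -0.58, 0.38 and -0.19 on the high phosphate ones. The groups overlapped, and the means differed by 0.39 (2-sided exact permutation p = 0.3; 0.3 after adjustment over the 2 ratios). Replicate 2 had the highest ratio in both groups. The difference was 0.14 without high phosphate replicate 2 and 0.65 without normal phosphate replicate 2.

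**Figure D3:**
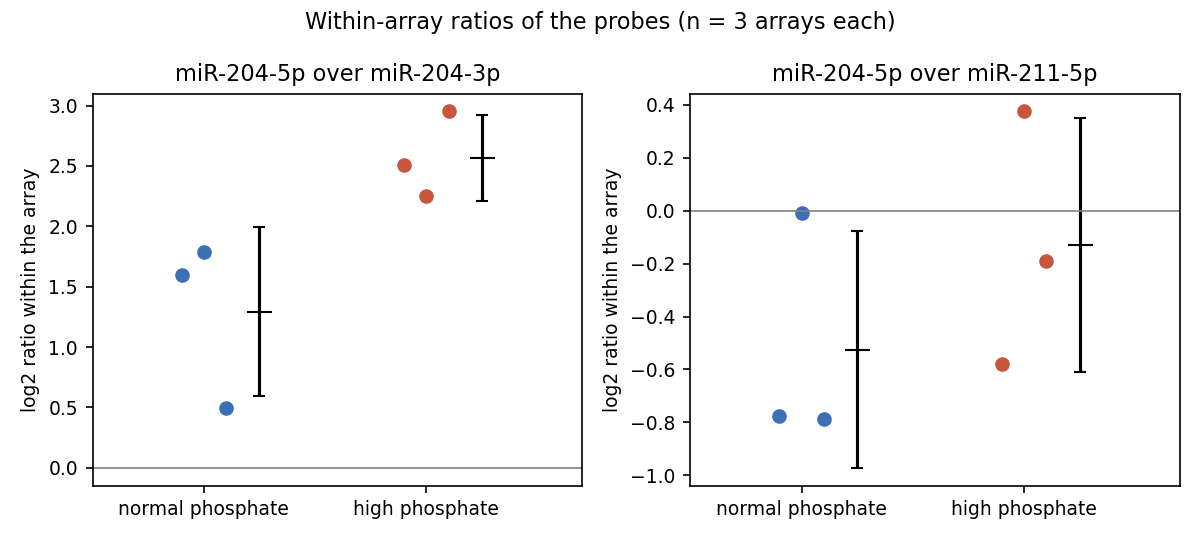
Log2 ratio of miR-204-5p to miR-204-3p (left) and to miR-211-5p (right) within each array (points), by phosphate group, with the mean and SD of 3 arrays (bars). Ratios to miR-204-3p lie between 0.50 and 1.79 in normal and between 2.25 and 2.95 in high phosphate, while ratios to miR-211-5p overlap.

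Likeness to other miRNAs was measured as the root mean square distance between log2 profiles over the 6 arrays, each centred on its own mean, among the tested probes. Closest to miR-204-5p were miR-1900 (0.086), miR-99a-5p (0.16) and miR-30d-5p (0.16), against a median distance of 0.37 over the tested probes. Closest to miR-211-5p were miR-92a-3p (0.17), miR-184-3p (0.19) and miR-299a-5p (0.21), against a median of 0.42. For miR-204-3p the smallest distances were 0.69 to each of miR-92a-3p, miR-211-5p and miR-299a-5p, against a median of 0.95. Profiles were centred but not scaled, so a probe of like pattern and smaller range also counts as distant. Among the members, miR-204-5p stood 0.36 from miR-211-5p and 0.79 from its own opposite arm.

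Runx2 is also known as a target of 10 other miRNAs, listed as a group. All 10 had a probe, of which 1 passed the filter, miR-30c-5p, and 0 of that 1 was called. Its mean was 26451 ± 4039 units (SD, n = 3) at normal phosphate against 21814 ± 3958 units (SD, n = 3) at high, with a log2 difference of -0.13 (SE 0.20, limma adjusted p = 0.890). MiR-23a-3p averaged 1512 and 975 units, miR-205-5p 1217 and 933 units and miR-133a-3p 771 and 674 units, with miR-23a-3p above the viral threshold on 1 array and both others on 0.

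Further members of that group were dimmer still and below the viral threshold on every array. MiR-218-5p averaged 129 and 112 units, miR-135a-5p 97.7 and 131 units, miR-34c-5p 80.5 and 89.8 units, and miR-338-3p 11.3 and 34.9 units, in normal and high phosphate. MiR-217-5p averaged 5.75 and 7.67 units, and miR-137-3p was at or below the Empty threshold on all 6 arrays. With 1 tested probe, no direction is given for the group.

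Of 8 other miRNAs reported to restrain vascular calcification, 3 were tested and 0 called. The log2 difference was -0.26 (SE 0.19) for miR-29a-3p, which represses collagens and elastin, -0.17 (SE 0.20) for miR-143-3p of smooth muscle, the brightest of them, and -0.12 (SE 0.33) for miR-30b-5p. MiR-29a-3p was above the viral threshold on 4 of 6 arrays. Its groups did not overlap after normalization, with high phosphate lower (limma adjusted p = 0.853). Groups did not overlap in either direction for 8.68% of all mouse probes. Of the 129 tested probes 67 (51.9%) had a lower mean in high phosphate.

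MiRNAs of other cells were measured beside the family, since miR-204 and miR-211 are not typical of endothelium. Of 4 miRNAs of pigmented and sensory epithelium, 3 were above the viral threshold on 6 of 6 arrays, namely miR-184-3p, miR-183-5p and miR-182-5p, and miR-96-5p averaged 1.67 and 3.08 units. Their summed signal before scaling was 63765 to 80608 units in normal and 46053 to 66279 units in high phosphate, while after normalization 2 of the 3 tested had a higher mean and the median log2 difference was 0.08. The 4 red cell and liver miRNAs, all above the viral threshold on 6 arrays, summed to 67884 to 87614 and 51753 to 62058 units before scaling. After normalization the groups overlapped for each of the 4, and their median log2 difference was -0.13. The 4 muscle miRNAs summed to 46150 to 59069 and 31456 to 49928 units before scaling. The 5 epithelial ones summed to 6274 to 7918 and 5279 to 6642 units, and the 3 leukocyte ones to 2289 to 3357 and 2092 to 2932 units, also before scaling. Before scaling the mean log2 level of all tested probes also differed, by -0.17, high minus normal (2-sided exact permutation p = 0.1). After normalization the median log2 difference, over tested and untested probes, was -0.18 for muscle, -0.23 for epithelial and -0.16 for leukocyte miRNAs. None of these lists held a called probe, but only 2 muscle, 1 epithelial and 0 leukocyte probes were tested, so the leukocyte list could hold none. The tested muscle probes were miR-1a-3p, with a log2 difference of -0.74 and no overlap of the groups (limma adjusted p = 0.698), and miR-206-3p, with -0.13 (limma adjusted p = 0.890). The part of these lists in the values of miR-204 and miR-211 was not tested. Fewer vesicles of a cell type and less miRNA per vesicle cannot be told apart.

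The direction of the 5p strands depended on the scaling. With scaling to the spike controls the log2 difference was 0.41 for miR-204-5p and 0.014 for miR-211-5p. With scaling to the Hy3 spots it was 0.48 and 0.089. Under Hy3 scaling the groups of miR-204-5p did not overlap, with high phosphate higher (2-sided exact permutation p = 0.1). For miR-204-3p the 2 scalings gave -0.87 and -0.79, with overlap between the groups under both (2-sided exact permutation p = 0.3 for each). With median scaling the groups of miR-204-3p also overlapped, at -1.33 (2-sided exact permutation p = 0.2). The spike control and Hy3 scalings moved the median log2 difference of all tested probes from -0.02 to 0.38 and 0.46. Both scalings shift all probes of an array alike, so a member has the same distance from that median under the one as under the other. That distance differs from the one after quantile normalization. There miR-204-5p was below the median, at -0.08 against -0.02, and with spike control scaling above it, at 0.41 against 0.38. In the deposited normalized intensities the median log2 difference of all tested probes was -0.21. The authors' deposited table gave a ratio of high over normal of 0.923 (p = 0.681) for miR-204-5p, 0.618 (p = 0.0581) for miR-211-5p and 0.317 (p = 0.150) for miR-204-3p, and the false discovery rates in the authors' deposited table were 0.886, 0.794 and 0.794.

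**Figure D4:**
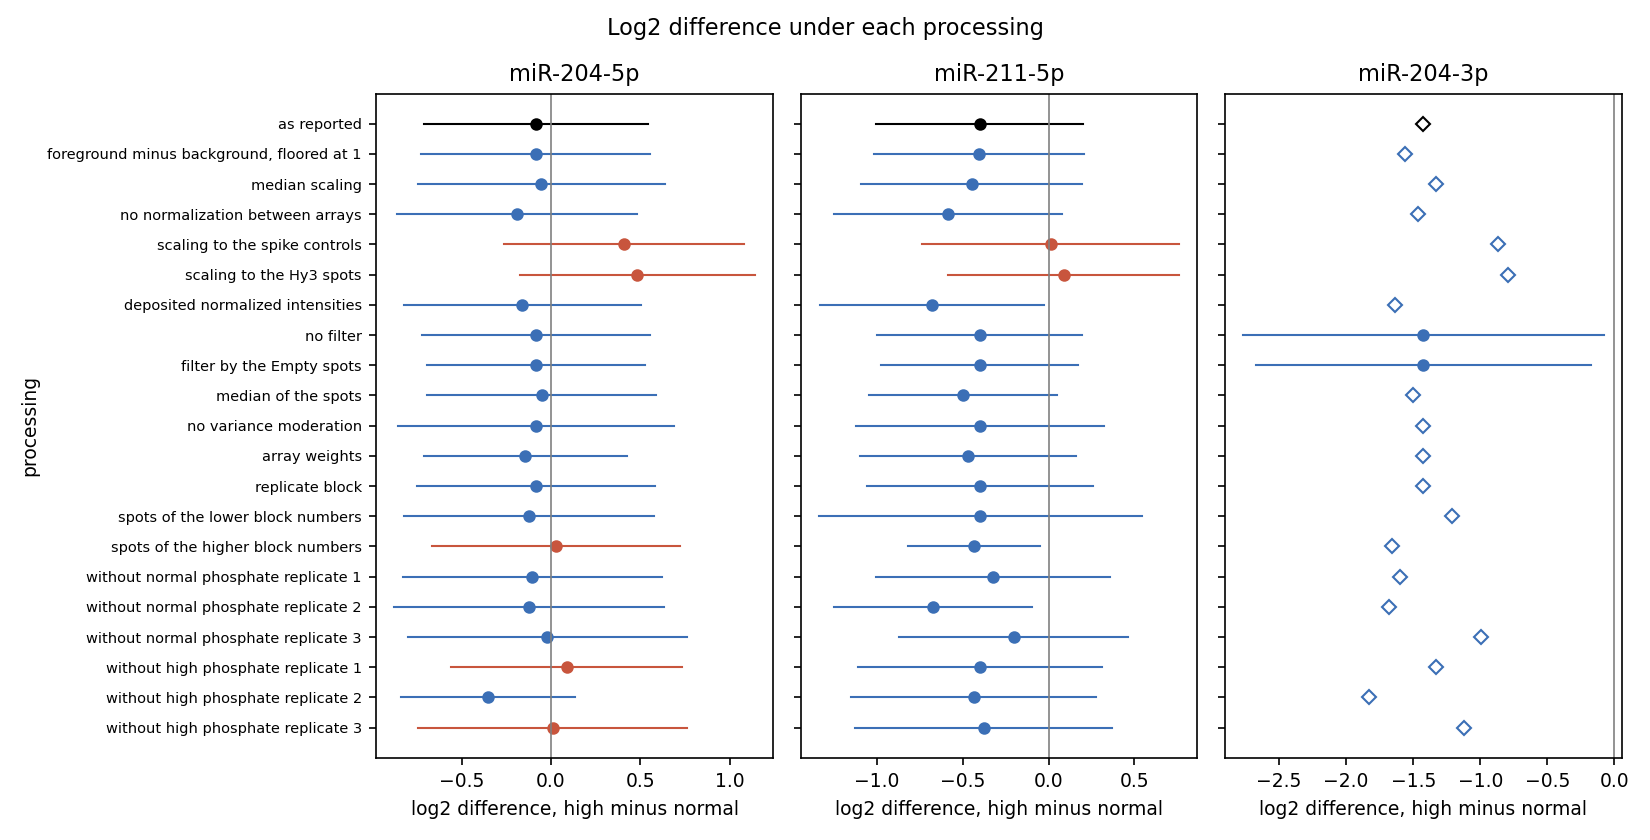
Log2 difference, high minus normal phosphate, of each member under every processing tried, with 95% limma intervals as lines where the probe entered the fit; open diamonds have no interval. Black is the value as reported, red marks values above 0 and blue values below 0. MiR-204-3p is below 0 throughout, from -1.83 to -0.79.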

How the data were processed

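RNA was labelled with the dye Hy3 and hybridised to 1-colour miRNA arrays, per the labels' protocols. The authors deposited spot intensities as foreground and as foreground minus background, per the file headers; the sources used here name no scanner or image software. Their normalized intensities were the median of a probe's spots after background subtraction, divided by 319 to 344.5 according to the array, as found from the values. For each probe the authors' deposited table adds a fold (the ratio of high to normal phosphate), its p-value and an adjusted value. Another 18 intensity columns of that table were not used.

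Over all spots, normexp with an offset of 50 corrected the background (limma 3.58.1 in R 4.3.3), spots were averaged, and arrays were quantile normalized over mouse and viral miRNA probes and taken to log2. Mouse probes whose spot mean lay above the viral probes' 95th percentile on at least 3 of 6 arrays were fitted with lmFit and eBayes (2-sided, Benjamini-Hochberg, threshold 0.05). MiR-204-3p and miR-211-3p, outside the filter, were compared with 2-sided exact permutation tests. Other listed probes outside the filter were given without a test. The fit was also run on simulated data, and no error rate from that run is given here. Precision is limited by the number of arrays, and the typical 95% interval of a log2 difference was its value plus or minus 0.61. No slide or scan information was given, so none entered the fit. Members and lists were chosen with earlier results of these data known. Named probes were the members, miR-211-3p, the Runx2 list, the extreme and brightest tested calcification inhibitors, and the 3 tested probes closest in profile to each member. Some probes of the cell type lists were named as well. Alternatives covered background, scaling, deposited values, filter, spot summary, variance model, array weights, the replicate block and leaving out each array.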

Additional observations from a re-analysis of the deposited data

How the results depend on the processing

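The log2 difference of miR-204-3p was negative under all 20 alternatives, but the groups overlapped under median scaling (-1.33, 2-sided exact permutation p = 0.2), spike control scaling, Hy3 scaling and with the spots of blocks 1 to 18 (p = 0.3 for each). Leaving out single arrays gave -1.83 to -0.99, and the other alternatives -1.66 to -0.79. That of miR-211-5p was negative under 18 of 20, the exceptions being 0.014 (spike control scaling) and 0.089 (Hy3 scaling), and lay between -0.67 and -0.20 over the arrays left out. The groups of miR-211-5p did not overlap in the deposited intensities or without normal phosphate replicate 2. Nor did they with the median of the spots or with the spots of blocks 19 to 36 (2-sided exact permutation p = 0.1 for each of these). The log2 difference of miR-204-5p was 0.41 (spike control scaling), 0.48 (Hy3 scaling) and 0.029 (spots of blocks 19 to 36, chosen after seeing the data). It lay between -0.35 and 0.088 over the arrays left out. The groups of miR-204-5p did not overlap under Hy3 scaling, with high phosphate higher, and without high phosphate replicate 2, with high phosphate lower (2-sided exact permutation p = 0.1 for each). Adjusted limma p ran from 0.289 to 0.999 for miR-204-5p, from 0.450 to 0.996 for miR-211-5p and from 0.758 to 0.776 for miR-204-3p where it was fitted. Called probes numbered 7 in place of 0 under Hy3 scaling, none of them a member, and 0 to 1 over the arrays left out. The Runx2 group's median over tested probes, which is the value of miR-30c-5p, was -0.13, against 0.32 (spike control scaling) and 0.39 (Hy3 scaling), and -0.19 to -0.01 over the arrays left out. Pairs of member and array above background went from 11 to 18 with the Empty spots as threshold. The change of the ratio of miR-204-5p to miR-204-3p was 0.88 to 1.52 over the arrays left out and 0.98 to 1.63 otherwise, and that to miR-211-5p 0.14 to 0.65 and 0.26 to 0.52. With a replicate block the differences were -0.08 for miR-204-5p, -1.42 for miR-204-3p and -0.40 for miR-211-5p (limma adjusted p = 0.818), and no call changed. Deviations of same-numbered arrays correlated at 0.22, 0.03 and -0.18 for replicates 1, 2 and 3. So few arrays cannot show whether the numbers pair them. The cause of the reversals was not tested beyond the shift of the median given above.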
